A study of Ambystoma mexicanum with 6 samples.

Results

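The 135 genes described here were both abundant and even in the axolotl retina. Each had at least 100 reads per M reads of its library (CPM, where M is 1000 times 1000) in every one of 6 retina libraries, and its highest CPM was at most 1.5 times its lowest. They were chosen by these values from 99088 genes, so their evenness is a description and was not tested. The axolotl is a salamander in which a surgically removed retina grows back. Retinas of 12 adult leucistic (pale-skinned) axolotls were profiled, in 3 regenerating pools collected 27 days after retinectomy and 3 uninjured pools. All pools held tissue of 4 animals, and each number marks the same animals in both groups. No animal was spared retinectomy, since the uninjured retina, from the left eye, was the tissue that the operation removed. The libraries held 29.4, 32.0 and 34.2 M estimated reads in regenerating pools 1, 2 and 3, and 35.7, 37.4 and 31.0 M in uninjured pools 1, 2 and 3.

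Genes that every cell uses, such as those for ribosomes, the cytoskeleton and energy metabolism, are often transcribed at a like rate in many cell types, and such genes serve as references when other genes are compared. In a tissue that is being rebuilt, the mix of cell types can change as well as the genes each cell uses. In newts, another group of salamanders, the regrown retina comes from the pigment epithelium behind it, whose cells lose their pigment, divide and form neurons and glia. A CPM value is a share of a library, so an even CPM means an even share of the sequenced RNA and not an even amount per retina. In pools of whole tissue, fewer cells of a type and less RNA per cell cannot be told apart.

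Genes carry AMEX60DD identifiers without symbols in the deposited files, and 0 of the 99088 were found in RefSeq's table of genes for the assembly UKY_AmexF1_1. The genes are therefore described by their rank in mean CPM among the 135, their level and their length, and a few by identifier. For the same reason, retinal markers could not be checked, and the gene lists for retinal cell types and for genes used by every cell could not be read. Their chromosomal positions were not used here.

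Few abundant genes stayed this even. Of 614 genes with at least 100 CPM in each library, 135 (22.0%) were within 1.5 times over all 6, and the other 479 were not. A larger set of 1572 genes averaged at least 100 CPM, but 958 of these fell below 100 CPM in at least 1 library. Over the 614 genes the median ratio of highest to lowest CPM was 2.01, the 90th percentile was 4.64 and the largest was 128. A ratio over 2 was found for 309 genes, over 4 for 90 and over 8 for 22. At the even end, 52 genes were within 1.3 times, 24 within 1.2 times and 4 within 1.1 times. The limits of 1.5 and 100 CPM do not mark a gap in the data. The steady genes nearest the limit had ratios of 1.497 and 1.494, and the nearest abundant genes beyond it had 1.501 in both cases. The steady genes nearest the minimum had a lowest CPM of 100.3 and 100.7, and the nearest even genes below it had 99.9 in both cases.

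**Figure D1:**
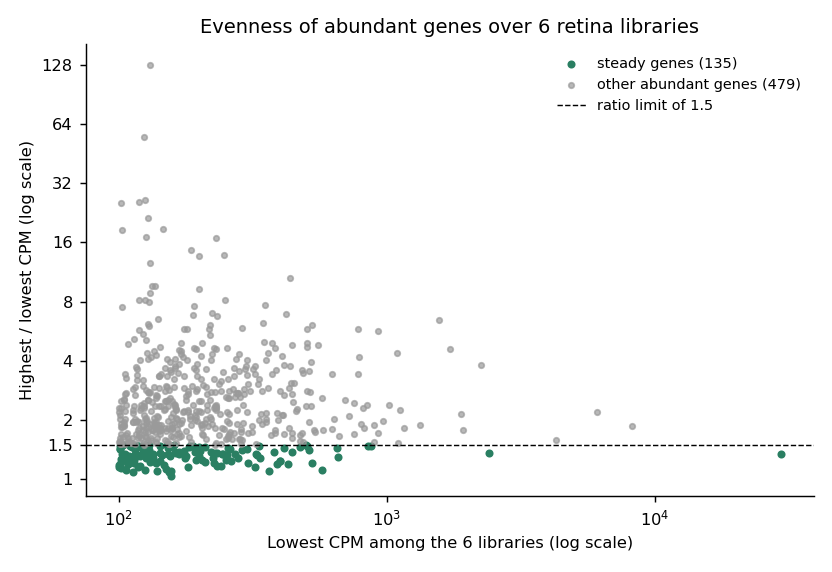
Each point is 1 of 614 abundant genes, by its lowest CPM among 6 libraries (x, log scale) and its highest CPM divided by its lowest (y, log scale), with the limit of 1.5 as a dashed line. The 135 steady genes (green) form the lower edge of a continuous cloud whose median ratio is 2.01 and whose largest ratio is 128.

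Most steady genes were of moderate abundance. The median of their mean CPM was 179.7, with the 25th and 75th percentiles at 139 and 285 CPM, and 78 of the 135 averaged under 200 CPM. Only 14 averaged at least 500 CPM and 4 at least 1000 CPM. Of the 100 genes with the highest mean CPM in the series, 4 were steady, and of the 1000 highest, 94. Within the 614 abundant genes, the steady share was 26.3% (61 of 232) where the lowest CPM was between 100 and 150, between 17.1% and 21.8% in the 4 classes from 150 to 1000 CPM, and 12.5% (2 of 16) from 1000 CPM.

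The gene with the highest mean CPM of the whole series was among the steady ones. AMEX60DD038502, 14107 bases long, had 39786, 30691 and 30617 CPM in the regenerating pools and 29702, 35863 and 33481 CPM in the uninjured pools. The groups overlapped, and regenerating pool 1 was the highest of the 6 and uninjured pool 1 the lowest. The group means were 33698 ± 5273 CPM in regenerating and 33016 ± 3107 CPM in uninjured pools (SD, n = 3 each). It was also the longest steady gene, and per length it stayed the highest of the 135, at 7121, 6001 and 6383 TPM (transcripts per M, scaled for length by the authors) in the regenerating pools and 6151, 7888 and 6652 TPM in the uninjured pools. Its mean of 6700 TPM was not the highest of the series, since the other 479 abundant genes reached a mean of 10989 TPM. Its estimated reads were not whole numbers in any of the 6 libraries, as happens when Salmon, the program that estimated the reads, divides some of them between transcripts of different genes. What the gene encodes is not given in the files.

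The next genes in rank were far lower in CPM. The gene ranked 2, AMEX60DD031103, had 2992, 3098 and 3295 CPM in the regenerating pools and 3042, 2408 and 2519 CPM in the uninjured pools. Uninjured pool 1 lay inside the regenerating range, whereas uninjured pools 2 and 3 lay below it. The gene ranked 3 had 1298, 1185 and 1118 CPM in the regenerating pools and 1236, 878 and 982 CPM in the uninjured pools, with the same pools apart. The gene ranked 4 ran the other way, at 851, 969 and 974 CPM in the regenerating pools and 1108, 1263 and 1197 CPM in the uninjured pools. Its groups did not overlap, and its ratio of 1.48 lay close to the limit.

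At the other end were genes whose pools could hardly be told apart. AMEX60DD055269, ranked 76 and the most even of all 614 genes, had 163, 156 and 160.2 CPM in the regenerating pools and 159, 164 and 160.4 CPM in the uninjured pools. Its highest value was 1.05 times its lowest. AMEX60DD040129, ranked 77, had 159, 168 and 161 CPM in the regenerating pools and 157, 160.0 and 154 CPM in the uninjured pools, a ratio of 1.09. The gene ranked 128 had 123, 123 and 113 CPM in the regenerating pools and 118, 117 and 115 CPM in the uninjured pools, also a ratio of 1.09. In each of these genes the groups overlapped, and over the 6 libraries the SD was 1.61%, 2.87% and 3.50% of the mean.

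Together the steady genes took a small and similar share of each library. They held 7.65%, 6.66% and 6.60% of the reads in the regenerating pools and 6.65%, 6.996% and 6.79% in the uninjured pools. The widest 95% Wilson interval, which covers counting error only, was that of regenerating pool 1, at 7.64% to 7.66%. Regenerating pool 1 was the highest and the other 5 pools lay close together. AMEX60DD038502 alone made up 3.98%, 3.07% and 3.06% of the regenerating and 2.97%, 3.59% and 3.35% of the uninjured reads. Without it, the other 134 genes held 3.67%, 3.59% and 3.53% of the regenerating and 3.68%, 3.41% and 3.45% of the uninjured reads. The similar shares follow from the choice of the genes. All 614 abundant genes held 42.9%, 40.5% and 39.1% of the regenerating and 32.7%, 29.4% and 28.7% of the uninjured reads. The steady genes were thus a minor part of the abundant RNA in every pool, as they were of the abundant genes (22.0%).

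For most pairs of pools, counting error was small beside the spread between them. The lowest read number of any steady gene in any library was 2968, for which the counting error is 1.84% of the level, and the median over genes at their lowest library was 1.44%. Over the 3 pools of a group the SD was a median of 7.35% of the mean in the regenerating and 5.07% in the uninjured group. The ratio of the highest to the lowest pool was a median of 1.15 within the regenerating and 1.10 within the uninjured group, and it was wider among the regenerating pools for 90 of the 135 genes (66.7%), against 260 of all 614 abundant genes (42.3%). Between uninjured pools 2 and 3 the median ratio was 1.02 and no steady gene (0) exceeded a ratio of 1.2, whereas between regenerating pools 1 and 3 the median was 1.14 and 48 genes exceeded it. The squared difference between uninjured pools 2 and 3, over the variance that read sampling gives, had a median of 1.45 and a mean of 27.6. Sampling alone gives a median under 1, so even this closest pair differed by more than counting noise. In the other 5 pairs within a group the median was 8.64 to 45.1. All these ratios are bounded by the limit that chose the genes.

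Some pools held the extreme value more often than others. Regenerating pool 1 was the highest pool for 42 steady genes, regenerating pool 3 for 21 and regenerating pool 2 for 13, and uninjured pools 1, 2 and 3 were the highest for 26, 17 and 16. Regenerating pools 1, 2 and 3 were the lowest for 25, 14 and 37 genes and uninjured pools 1, 2 and 3 for 7, 32 and 20. Among the other 479 abundant genes, regenerating pools 1, 2 and 3 were the highest for 223, 55 and 57 and uninjured pools 1, 2 and 3 for 44, 66 and 34. In the same order, the pools were the lowest for 76, 34 and 46 and for 32, 132 and 159. Regenerating pool 1 was thus most often the highest, and uninjured pool 1 least often the lowest, in both sets of genes. The other counts were not all alike between the sets. The 10th to 90th percentile of a gene's level, as a share of its own mean over the 6 libraries, ran from 84.7% to 123% in regenerating pool 1, and from 92.1% to 116% in uninjured pool 1.

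**Figure D2:**
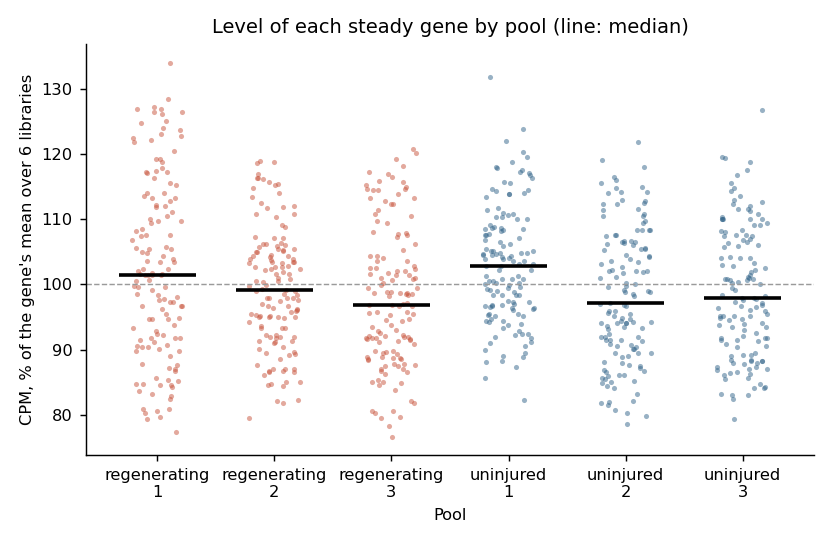
Each point is 1 steady gene in 1 pool, as its CPM in percent of its own mean over the 6 libraries (y), for the 3 regenerating pools (red) and the 3 uninjured pools (blue) on the x axis, with the median as a black line. The medians lie between 96.8% and 103%, and the points of regenerating pool 1 spread most, with a 10th to 90th percentile of 84.7% to 123%.

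Many more abundant genes were even within a group than over both groups, in part by construction, since 3 libraries meet a limit more easily than 6. Of the 614 abundant genes, 481 (78.3%) were within 1.5 times among the 3 regenerating pools and 409 (66.6%) among the 3 uninjured pools. Both groups taken separately met the limit for 350 genes, of which 135 (38.6%) met it over all 6 libraries. Between 2 pools of the same animals, the regenerating and the uninjured pool were within 1.5 times for 333 genes (54.2%) in number 1, 251 (40.9%) in number 2 and 264 (43.0%) in number 3. A regenerating pool and uninjured pool 2 or 3 shared the limit for 35.5% to 43.0% of the abundant genes, and a regenerating pool and uninjured pool 1 for 54.2% to 64.8%. Within the uninjured group, pools 2 and 3 were within the limit for 608 genes (99.0%), but pool 1 was within it for 419 (68.2%) with pool 2 and 424 (69.1%) with pool 3. Within the regenerating group, pools 2 and 3 shared it for 600 genes (97.7%), pools 1 and 2 for 549 and pools 1 and 3 for 494. These counts describe levels and were not tested, and 614 genes that share libraries are not independent.

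**Figure D3:**
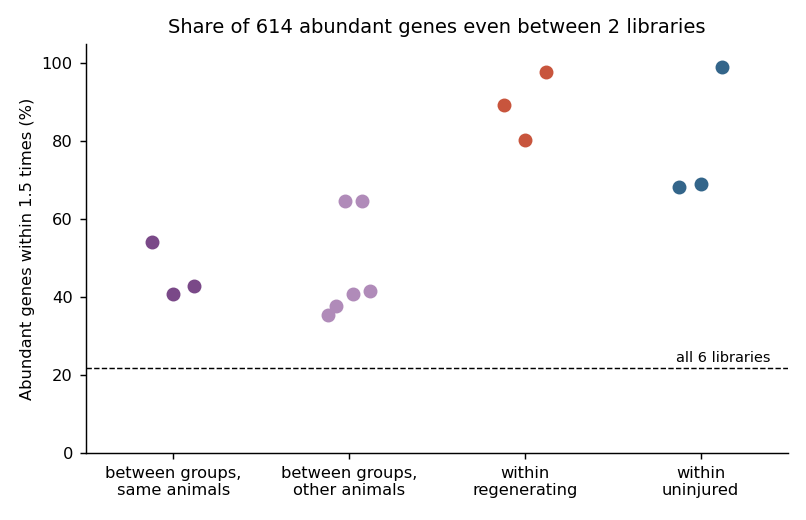
Each point is a pair of libraries, and the y axis gives the percentage of the 614 abundant genes whose CPM values in the 2 libraries were within 1.5 times of each other. Pairs within the regenerating group lie between 80.5% and 97.7%, pairs within the uninjured group between 68.2% and 99.0%, and pairs of a regenerating with an uninjured pool between 35.5% and 64.8%; the dashed line marks the 22.0% within the limit over all 6 libraries.

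Regenerating pool 1 moved the number of steady genes most. Judged by 5 libraries, 202 genes were steady without regenerating pool 1 and 156 without uninjured pool 1, and 235 without both. Leaving out regenerating pool 2 or 3 gave 141 and 166, and leaving out uninjured pool 2 or 3 gave 153 and 143. Of the 67 genes that regenerating pool 1 removed, it was above the mean of the other 5 libraries in 38 and below it in 29. All 135 genes are in each of these sets by construction. Why these pools stand apart was not tested.

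A steady range still held differences between the groups. The mean CPM of the regenerating pools was between 0.703 and 1.40 times that of the uninjured pools, with a median of 1.01. For 58 genes the group means were within 1.1 times of each other, for 17 the regenerating mean was at least 1.2 times the uninjured mean, and for 25 the uninjured mean was at least 1.2 times the regenerating mean. The gene ranked 96 had 119, 122 and 116 CPM in the regenerating pools and 167, 170.1 and 171 CPM in the uninjured pools, the lowest relative level of the 135. The gene ranked 66 had 212, 218 and 224 CPM in the regenerating pools and 154, 159 and 155 CPM in the uninjured pools, the highest. In both genes the CPM gap between the groups was wider than the spread within them. In the edgeR test given below, which uses another scaling than CPM, the gene ranked 66 was called higher (log2 difference 0.64, adjusted p = 0.0104). The gene ranked 96 was not called (log2 difference -0.35, edgeR adjusted p = 0.0735). Both genes were picked as the extremes of the ratio of group means, so nothing is read from these outcomes. By CPM, all 3 regenerating pools lay above all 3 uninjured pools in 24 steady genes and below them in 33, and the groups overlapped in the other 78. Among the 37844 genes that passed the filter on low counts, 23% lay above and 33.9% below. Of all 614 abundant genes, 273 (44.5%) lay above and 152 (24.8%) below, and the groups overlapped in 189 (30.8%). Since the steady genes were chosen on these values, nothing is read from the differences.

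The choice of scaling moved this balance. TMM, a scaling that centres the bulk of the genes, puts the steady genes slightly higher in the regenerating retina, with a median ratio of group means of 1.13, against 1.01 in CPM on library totals and 0.943 in TPM. After TMM scaling the regenerating pools lay above the uninjured ones in 58 of the steady genes and below in 10, while in TPM they lay above in 16 and below in 41. The same counts over all genes were not made in TMM or TPM. A change of scaling moves every gene, so these counts are not read as a trait of the steady genes. The limit of 1.5 was met by 101 of the 135 genes after TMM scaling and by 106 in TPM. Across all genes tested, TMM in place of library totals changed the median log2 difference between the groups to -0.01, against -0.18. In the same fits the median over the steady genes was 0.18, against 0.01. The gene ranked 4 was the least even in TPM, at 480, 576 and 606 TPM in the regenerating pools and 689, 852 and 752 TPM in the uninjured pools, 1.77 times between the extremes. Whether the steady genes are level or slightly higher or lower in the regenerating retina therefore depends on the scaling.

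In the edgeR quasi-likelihood test of regenerating against uninjured pools, all 135 steady genes passed the filter on low counts, 14 were called higher and 0 lower at a Benjamini-Hochberg adjusted p under 0.05. Over all 37844 genes tested 20.4% were called higher and 21.1% lower. Unadjusted p values under 0.05 were found for 26 steady genes in the higher and 1 in the lower direction. With library totals in place of TMM, the scale of the rule, these numbers were 6 and 11. Unadjusted p values under 0.05 were not counted over all genes, so nothing is read from this balance. At the adjusted threshold, 4 were called higher and 2 lower with library totals, DESeq2 called 22 and 1, and limma-voom 25 and 1. Over all genes, 6256 were called higher and 9492 lower with library totals, 8432 and 8419 by DESeq2, and 8328 and 8013 by limma-voom. With the pools paired by animal as a block, 6 were called higher and 0 lower, and 36.6% of all genes were called in either direction. The number higher was 3 without uninjured pool 2, 0 without uninjured pool 3, 3 without regenerating pool 2, 6 without regenerating pool 3 and 23 without uninjured pool 1. In those fits 5219 to 10009 of 39750 to 41049 genes were called higher. The rule used the same contrast, so these counts say only how a limit of 1.5 and a test of the mean overlap. One of the called genes, AMEX60DD003017, ranked 111, stood just inside the limit, at 155, 152 and 147 CPM in the regenerating pools and 122, 104 and 104 CPM in the uninjured pools.

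By median, the steady genes had longer transcripts than the other abundant genes. Their median transcript length was 3209 bases, with the 25th and 75th percentiles at 2299 and 4348 bases, against 2482 bases with percentiles of 1471 and 3946 bases in the other 479. The shortest steady gene, ranked 68, was 988 bases long, and the next after AMEX60DD038502 at the long end, ranked 113, was 11844 bases long at 27.1 TPM. When the 614 abundant genes were split into 5 classes of nearly equal size by length, 10 of 123 genes (8.13%) were steady in the class up to 1419 bases and 43 of 123 (35.0%) in the class from 3126 to 4443 bases. In the longest class, 31 of 123 (25.2%) were steady. The median ratio of highest to lowest CPM was 2.86 in the shortest class and between 1.78 and 2.03 in the others. Length did not enter the rule, but genes are not replicates, so this difference is given without a test.

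**Figure D4:**
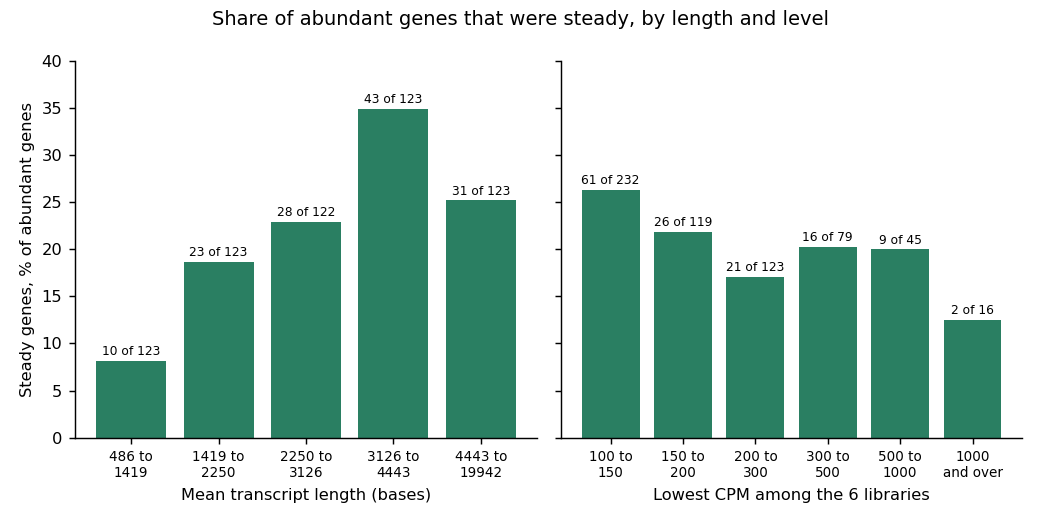
Bars give the steady genes as a percentage of the abundant genes in each of 5 classes of mean transcript length (left, bases) and each class of lowest CPM among the 6 libraries (right), with the numbers of genes above the bars. The share is lowest at 8.13% in the shortest class and highest at 35.0% between 3126 and 4443 bases, while over classes of level it lies between 12.5% and 26.3%.

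Identifiers beginning with AMEX60DDU belonged to 4 of the 135 steady genes (2.96%) and 19 of the 614 abundant genes (3.09%), against 42.7% of all 99088 genes. The remaining 131 had plain numbers from 499 to 55773 and held 1 pair of consecutive numbers. Estimated reads that were not whole, within a tolerance of 0.005, were found in 25.9% to 30.4% of the steady genes per library and in 47.0% to 49.3% of the other abundant genes. In at least 1 library this held for 51 steady genes, whose levels depend on how Salmon divided reads.

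Some genes with steady reads had transcripts whose mean length differed between the groups. For each gene the files give the mean length of its transcripts weighted by their abundance, a value that does not enter the rule. Of the 135 steady genes, 114 (84.4%) had a length that varied over the libraries, and 22 (16.3%) varied by more than 1.1 times. The shares were similar over all 614 abundant genes, at 81.3% and 16.9%. In a limma test of log2 length over 12694 genes, 12 steady genes had shorter and 1 had longer transcripts in the regenerating pools at a Benjamini-Hochberg adjusted p under 0.05, or 13 of 114 (11.4%). Of all genes tested 4.44% were shorter and 1.82% longer, together 6.26%, and of the other abundant genes 26 of 385 (6.75%) were called. Whether the steady genes differ from the rest in this was not tested. With the pools paired by animal as a block, 1 steady gene was called shorter and 0 longer, against 0.213% of all genes in that fit. Without uninjured pool 2 or uninjured pool 3 the number shorter was 1, and without regenerating pool 2 or 3 it was 2. The number longer was 0 without uninjured pool 2, uninjured pool 3 or regenerating pool 2, and 2 without regenerating pool 1. Calls fell over all genes as well. With all 6 libraries 564 genes were shorter, against 93 and 88 without uninjured pool 2 or 3. Without regenerating pool 2 or 3 the numbers were 182 and 298. Longer transcripts were called for 231 genes with all 6 libraries. Without uninjured pool 2, uninjured pool 3, regenerating pool 2 and regenerating pool 1 in turn they were 63, 67, 69 and 148. These fits tested 12561 to 12684 genes.

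The 2 largest shifts left the regenerating transcripts at 0.711 and 0.728 times their uninjured length. AMEX60DD010326, ranked 75, had mean transcript lengths of 2942, 3276 and 3173 bases in the regenerating pools and 4157, 4571 and 4485 bases in the uninjured pools. The groups did not overlap, and the log2 difference was -0.49 with a standard error of 0.06 (limma adjusted p = 0.0245, 0.0354 with the block, range over all settings 0.0167 to 0.102). Its CPM stayed at 170, 170 and 157 in the regenerating pools and 171, 153 and 151 in the uninjured pools. Per length its level therefore differed more, at 107, 99.8 and 98.5 TPM in the regenerating pools and 78.8, 69.7 and 65.2 TPM in the uninjured pools.

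AMEX60DD043722, ranked 121, had 7394, 6968 and 6887 bases in the regenerating pools and 9710, 9662 and 9807 bases in the uninjured pools. Its log2 difference was -0.46 with a standard error of 0.03 (limma adjusted p = 0.00748, 0.0857 with the block, range over settings 0.0024 to 0.0857). Its CPM was 139, 118 and 113 in the regenerating pools and 130, 116 and 125 in the uninjured pools, groups that overlapped. The 1 gene with longer transcripts, AMEX60DD052092, ranked 19, had 2167, 2210 and 2243 bases in the regenerating pools and 1966, 1908 and 1919 bases in the uninjured pools, a log2 difference of 0.19 with a standard error of 0.02 (limma adjusted p = 0.0172, 0.123 with the block, range over settings 0.0112 to 0.123).

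The most even gene by reads was also among the 12. AMEX60DD055269 had 3202, 3358 and 3358 bases in the regenerating pools and 3620, 3676 and 3675 bases in the uninjured pools, a log2 difference of -0.15 with a standard error of 0.02 (limma adjusted p = 0.0404, 0.107 with the block, range over settings 0.0222 to 0.145). All 3 regenerating values lay below all 3 uninjured values. The other 9 genes with shorter transcripts had log2 differences between -0.19 and -0.03, so that some of the calls concern shifts of about 2% of the length.

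**Figure D5:**
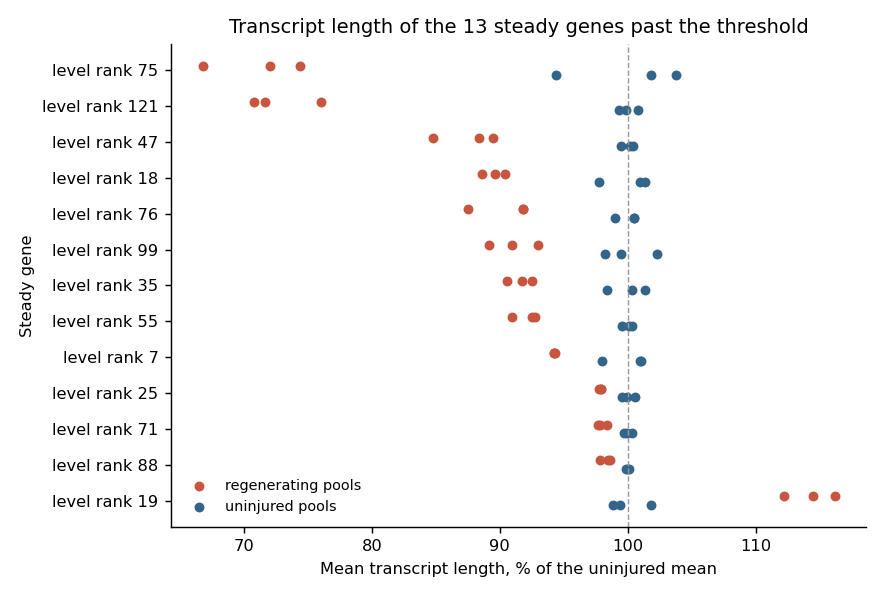
Points give the mean transcript length of a gene in each regenerating pool (red) and each uninjured pool (blue), as a percentage of the mean of the uninjured pools (x), for the 13 steady genes past the threshold, named by their rank in mean CPM among the 135 (y). In 12 genes the regenerating pools lie left of the uninjured pools, farthest in the genes ranked 75 and 121, and in the gene ranked 19 they lie to the right.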

How the data were processed

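The members and lists were chosen with earlier results of these data known. The deposited sample files give, per the file headers, expected counts of reads per gene, TPM and mean transcript length. The authors used Trimmomatic 0.38 and Salmon 0.13.1, per the submitters' processing notes; the sources used here give no genome build, annotation or strand setting. The deposited series table holds a signal equal, in 100% of genes above 1 TPM and within 1%, to TPM times the library total, and served only as an alternative.

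CPM was the count of estimated reads over the library sum. For tests, counts were rounded and fitted with edgeR 4.0.16 in R 4.3.3 (filterByExpr at a minimum of 10, TMM, robust quasi-likelihood F-test, all 6 libraries, no block). Log2 transcript length was fitted with limma 3.58.1 (trend, robust) for genes with varying length and a mean of 100 reads or more. Adjusted p values are Benjamini-Hochberg over all genes tested, with a threshold of 0.05. Both tests were tried on simulated data. A single value per library tested exactly, 3 against 3, cannot go below p = 0.10, so no such test was made. The labels pair the pools by animal, so a block for the pool number was an alternative; over 16020 genes averaging 5 CPM or more, deviations of same-numbered pools correlated between -0.07 and 0.01. As a mean over the steady genes, squared differences between replicates of a group were at least 27.3 times the sampling variance. Between uninjured pools 2 and 3 the mean was 27.6 and the median 1.45, where sampling alone gives a median under 1. P-values weigh the difference between the groups against the spread between pools, which both tests estimate in part across genes. Alternatives were other scalings, units, limits, filters and tools (DESeq2 1.42.0, limma-voom), and leaving out each library.

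Named genes followed a rule: the 4 highest, the 3 most even, those next to the limits, the longest and shortest, and the largest length changes. The genes ranked 66, 96 and 113 were named after their values were seen.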

Additional observations from a re-analysis of the deposited data

How the results depend on the processing

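The set held 135 genes. Under TMM scaling it held 127 (98 of them shared with the 135), with DESeq2 size factors 124 (98 shared), and in TPM, as in the series table, it held 109 (67 shared, 49.6% of the 135 and 61.5% of the 109). It held 186 genes by a mean of 100 CPM alone, and 242 (123 shared) with a library sum without the 100 most abundant genes. By construction it was 38 or 305 at the stricter ratio limit or a limit of 2 and 482 or 48 at a minimum of 50 or 200 CPM. Leaving out 1 library gave 141 to 202 genes, and leaving out both pools numbered 1, an alternative chosen after the data were seen, 235. Counts of abundant genes even among regenerating pools (481), among uninjured pools (409) and between pools of the same animals (333, 251 and 264) were 1378, 1231, 961, 800 and 816 at 50 CPM and 197, 155, 128, 93 and 109 at 200 CPM, where fewer or more genes can count. They stayed within 1.5 times under TMM and TPM and without 1 pool of the group, at 494 to 600 and 419 to 608. Of 14 steady genes higher and 0 lower in edgeR, 4 and 2 were called with library totals, 9 higher without a filter, 22 and 1 by DESeq2, 25 and 1 by limma-voom, 2 higher at an adjusted p under 0.01, and 0 to 23 higher and 0 to 1 lower without 1 library. Over all genes, 6924 of 81644 were higher and 7490 lower without a filter. At an adjusted p under 0.01, 4410 of 37844 were higher and 5066 lower. Without 1 library, 5219 to 10009 were higher and 5804 to 9131 lower. With pools paired by animal (replicate block) 6 steady genes were higher, in a fit that called 36.6% of all genes in either direction. The block left 1 of 12 genes with shorter and 0 of 1 with longer transcripts. Longer transcripts were called for 2 steady genes at 100 reads in each library, 4 at a mean of 1000 reads and 2 without trend and robust fitting, and 0 to 2 without 1 library, where 1 to 10 were shorter. The first 3 of these fits called 14, 17 and 14 steady genes shorter. Over all genes, the same fits called 195 of 9696, 150 of 4870 and 259 of 12694 longer, and 547, 462 and 668 shorter. The share of all genes called was larger where more reads were required. Without 1 library, 63 to 261 of all genes were longer and 88 to 523 shorter. The cause was not tested. A gene that missed the threshold may still have changed.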
